A study of Mus musculus with 2 samples.

Results

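The insulin-like growth factor (IGF) family was examined in bulge and hairshaft samples microdissected from mouse hair follicles. The family was taken as 10 genes, namely the ligands Igf1 and Igf2, the receptors Igf1r and Igf2r, and the binding proteins Igfbp2, Igfbp3, Igfbp4, Igfbp5, Igfbp6 and Igfbp7. All probe sets that the platform annotation assigns to one of these symbols alone were used, which gave 28 of the 45101 probe sets on the array. Skin came from C57Bl6 mice at 21 days of age in both groups, with no treatment or mutation given in the labels; it was frozen, sectioned, stained with eosin and cut by laser. Total RNA (30 ng) was amplified linearly, labelled with biotin and hybridised to 1 array for the bulge and 1 for the hairshaft. Whether a sample pooled several animals is not given in the sources used here. There were no replicates, so no difference below could be set against a replicate spread and no test was run; precision is limited by the number of arrays.

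IGF1 and IGF2 are small secreted hormones related to insulin. Both signal through the receptor tyrosine kinase encoded by Igf1r, which acts through insulin receptor substrates, phosphoinositide 3-kinase and AKT to promote growth and survival, whereas the receptor encoded by Igf2r takes up IGF2 for breakdown. Binding proteins hold the ligands outside the cell, prolong their life and limit or direct their access to the receptor, and proteases such as the pappalysins release the ligands again. In skin, IGF1 made by mesenchymal cells, including the dermal papilla, is known to act on follicle keratinocytes and to prolong hair growth.

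The values are deposited log2 probe-set summaries, where a difference of 1 is 2-fold, and each difference is bulge minus hairshaft. The floor above which a probe set was taken as detected is the 95th percentile of 78 olfactory and vomeronasal receptor probe sets, which came to 2.70 for the bulge and 2.69 for the hairshaft. A gene at least 2-fold higher in one array is written as past 2-fold on the side of that array, and the rest as within 2-fold. A gene with several probe sets is represented by the brightest, and 13297 of 18194 genes were above the floor on at least 1 array. The arrays differ in more than the follicle structure they are named for. Markers of bulge stem cells were past 2-fold on the bulge side for 10 of 14 genes above the floor. Lhx2 had the largest difference (9.23 in the bulge against 4.67 in the hairshaft). Krt15, the brightest of the list, was within 2-fold (13.99 in the bulge against 13.68 in the hairshaft), and Runx1 had the opposite direction (-0.90). Markers of the inner root sheath and hair shaft went against the hairshaft label, being past 2-fold on the bulge side for 10 of 13 genes and on the hairshaft side for none. Over all genes above the floor, 11.5% were past 2-fold on the bulge side and 4.91% on the hairshaft side. "Bulge" and "hairshaft" are therefore used below as the names of the 2 arrays.

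The IGF family was divided between the arrays. Of the 10 genes, 3 were past 2-fold on the bulge side (Igfbp4, Igfbp7 and Igf1), 1 was past 2-fold on the hairshaft side (Igfbp2), and 6 were within 2-fold. Among all genes above the floor, 11.5% were past 2-fold on the bulge side and 4.91% on the hairshaft side, and among the 10 members 30% and 10% were, which are counts of 3 genes and 1 gene. The median difference of the 10 members was 0.75, against 0.00 over all genes. All 10 were above the floor on both arrays, so every fold of a member is measured on both sides. The plot of all genes shows where each member fell.

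**Figure D1:**
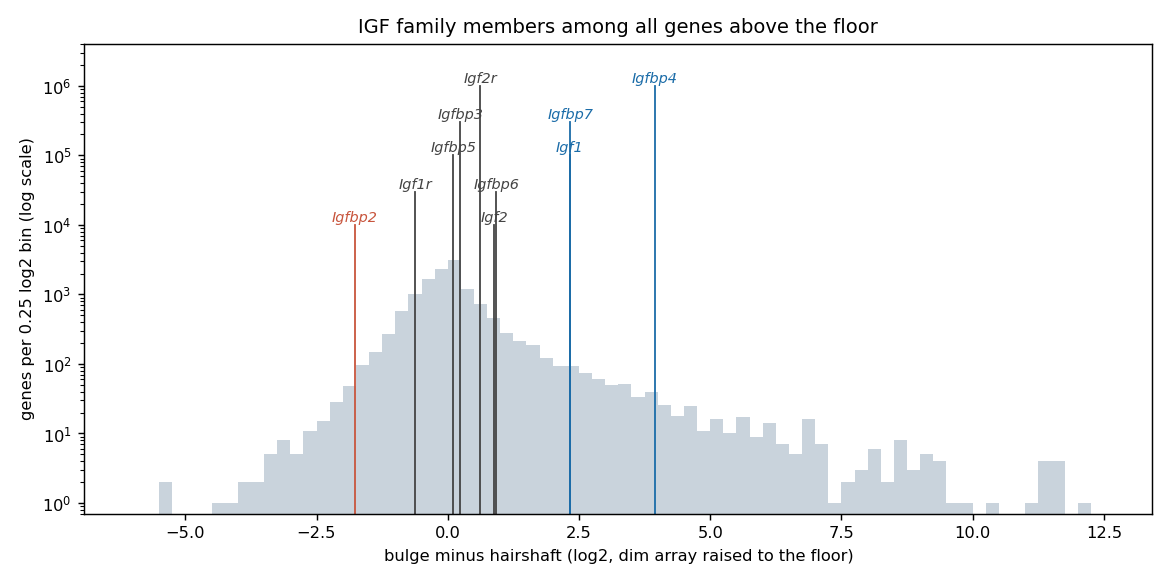
Number of genes (log scale) by the difference bulge minus hairshaft (log2) for the 13297 genes above the floor, with a line at each of the 10 members. Igfbp4, Igfbp7 and Igf1 (blue) lie beyond 2-fold on the bulge side, Igfbp2 (red) beyond 2-fold on the hairshaft side, and the other 6 (grey) in between.

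At the level of probe sets, 26 of the 28 were above the floor on at least 1 array. Of these, 11 (42.3%) were past 2-fold on the bulge side, against 9.91% of all probe sets, and 2 (7.69%) were past 2-fold on the hairshaft side, against 6.76%. The probe sets are not independent: 10 of the 11 belong to Igfbp4 (6) and Igf1 (4), and those of one gene read the same RNA. They are the only repeat measurement here. Several probe sets were detected for 7 members, and in 5 of them every one pointed the same way by more than 0.01. The exceptions were Igf1r, with both directions, and Igfbp7, with 1 probe set that read equal. Over all genes with several probe sets above the floor, such agreement was found for 3016 of 6238 (48.3%). A probe set that read equal on both arrays fails this rule. Of all 24098 probe sets above the floor, 10142 were higher in the bulge, 11495 in the hairshaft and the rest equal. The members and all genes were not matched for signal level in this comparison.

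**Figure D2:**
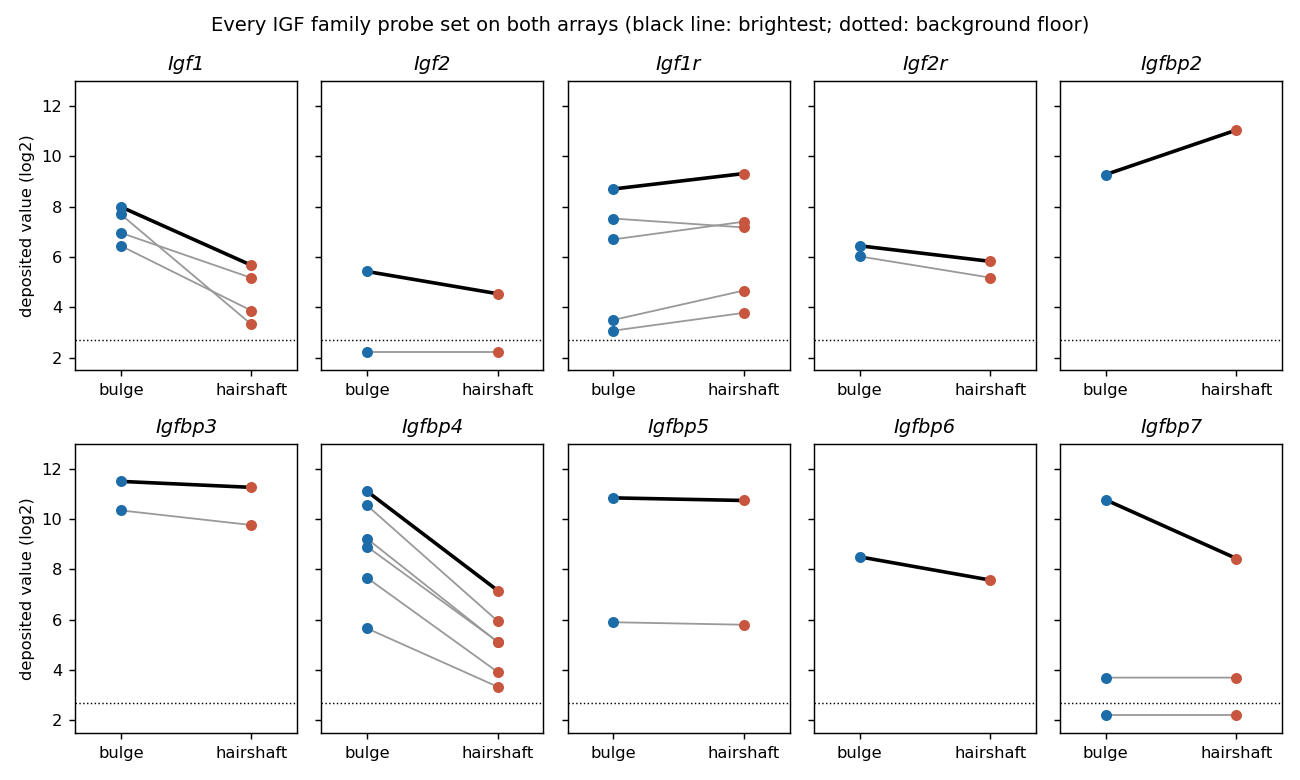
Deposited log2 value of each of the 28 probe sets on the bulge array (blue, left) and the hairshaft array (red, right), 1 panel a gene, with the brightest probe set of the gene as a black line and the background floor dotted. All 6 lines of Igfbp4 and all 4 of Igf1 run downward to the hairshaft, the single line of Igfbp2 runs upward, and 1 probe set of Igf2 and 1 of Igfbp7 lie below the floor on both arrays.

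The ligand Igf1 was higher in the bulge with every probe set. Its brightest probe set read 7.996 in the bulge against 5.67 in the hairshaft, a difference of 2.33 or 5.01-fold. The other 3 read 6.96, 7.70 and 6.45 in the bulge, against 5.17, 3.32 and 3.87 in the hairshaft, which are differences of 1.79 (3.47-fold), 4.38 (20.8-fold) and 2.58 (5.97-fold). The direction was thus shared by 4 of 4 probe sets while the size ranged from 3.47-fold to 20.8-fold, and the largest fold came from the probe set that was dimmest in the hairshaft; over a stricter floor, the 99th percentile of those receptors (4.22), it was at least 11.2-fold. By its brightest probe set, Igf1 stood at rank 605 of 13297 genes ordered from the bulge end, and 95.1% of genes had a smaller difference in either direction.

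Igf2, the fetal growth factor expressed from the paternal allele, was above the floor with 1 of its 2 probe sets. Its brighter probe set read 5.43 in the bulge against 4.54 in the hairshaft, a difference of 0.89 (1.85-fold), just under the 2-fold limit. The other probe set stood at the lowest value of the table, 2.23, on both arrays, and gives no difference. With the mean of both probe sets the difference was 0.44. The ligands therefore had unlike records in these data, with 4 concordant probe sets past 2-fold for Igf1 and a single informative one under 2-fold for Igf2.

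The receptors were both within 2-fold and pointed in opposite directions. Igf1r, the signalling receptor, read 8.71 in the bulge against 9.32 in the hairshaft with its brightest probe set, a difference of -0.61 or 1.53-fold higher in the hairshaft. Of its 5 probe sets, 4 were higher in the hairshaft, with differences of -0.61, -0.70, -0.71 and -1.17, and 1 was higher in the bulge (7.53 in the bulge against 7.18 in the hairshaft, a difference of 0.35). The probe set at -1.17 was the only one past 2-fold, at 3.50 in the bulge against 4.67 in the hairshaft, close to the background. The mean of the 5 gave a difference of -0.57.

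Igf2r, the clearing receptor and itself an imprinted gene in the mouse, was slightly higher in the bulge with both of its probe sets. The brighter read 6.45 in the bulge against 5.83 in the hairshaft (a difference of 0.62, 1.54-fold), and the dimmer read 6.03 in the bulge against 5.18 in the hairshaft (0.85, 1.80-fold). Neither reached 2-fold, and 69.7% of all genes had a smaller difference than the brighter probe set.

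The 6 binding proteins spanned the widest range in the family, with 2 past 2-fold on the bulge side, 1 past 2-fold on the hairshaft side and 3 within 2-fold. Igfbp4, whose product mostly restrains IGF signalling until it is cleaved by pappalysin, had the largest difference of all members. Its brightest probe set read 11.11 in the bulge against 7.16 in the hairshaft, a difference of 3.94 or 15.4-fold. The other 5 probe sets differed by 4.60, 4.12, 3.78, 3.74 and 2.32, that is by 24.3-fold, 17.3-fold, 13.7-fold, 13.4-fold and 4.998-fold. All 6 were above the floor on both arrays, and the smallest difference belonged to the dimmest probe set (5.66 in the bulge against 3.33 in the hairshaft), which was at least 2.71-fold over that stricter floor. Igfbp4 ranked 238 of 13297 genes from the bulge end; 3.02% of genes were at least 8-fold higher there. The 3 genes outside the family closest to it on both arrays (distance over the 2 log2 values) were Gyg at 0.19, Ldhb at 0.28 and Cyp2f2 at 0.54, a likeness that rests on 2 arrays only.

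Igfbp7, a low-affinity relative found in the basement membrane of vessels, was higher in the bulge by 1 probe set only. Its brightest probe set read 10.77 in the bulge against 8.44 in the hairshaft, a difference of 2.33 or 5.04-fold. The second read 3.70 on both arrays, and the third lay below the floor on both. With the mean of the 3 probe sets the difference was 0.78, under 2-fold, so the call rests on the bright probe set.

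Igfbp2, a binding protein that can also attach to integrins, had the opposite direction. Its single probe set read 9.28 in the bulge against 11.05 in the hairshaft, a difference of -1.77 or 3.41-fold higher in the hairshaft. Counted from the hairshaft end, Igfbp2 ranked 128 of 13297 genes, nearer to its end of the order than Igfbp4 (238) was to the other, although the difference was smaller. The gap between the differences of Igfbp4 and Igfbp2 was 5.71 on the log2 scale. No second probe set was at hand to repeat the Igfbp2 value.

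Igfbp3, the main carrier of IGFs in blood, was nearly equal on both arrays. It read 11.50 in the bulge against 11.27 in the hairshaft (a difference of 0.24, 1.18-fold), and its second probe set 10.35 in the bulge against 9.77 in the hairshaft (0.58, 1.497-fold). Igfbp5, which binds to extracellular matrix, read 10.85 in the bulge against 10.74 in the hairshaft, a difference of 0.10 that its dimmer probe set repeated (5.90 in the bulge against 5.80 in the hairshaft). Igfbp6, a binding protein that prefers IGF2, read 8.50 in the bulge against 7.58 in the hairshaft with its single probe set, a difference of 0.92 (1.90-fold), just under the 2-fold limit.

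**Figure D3:**
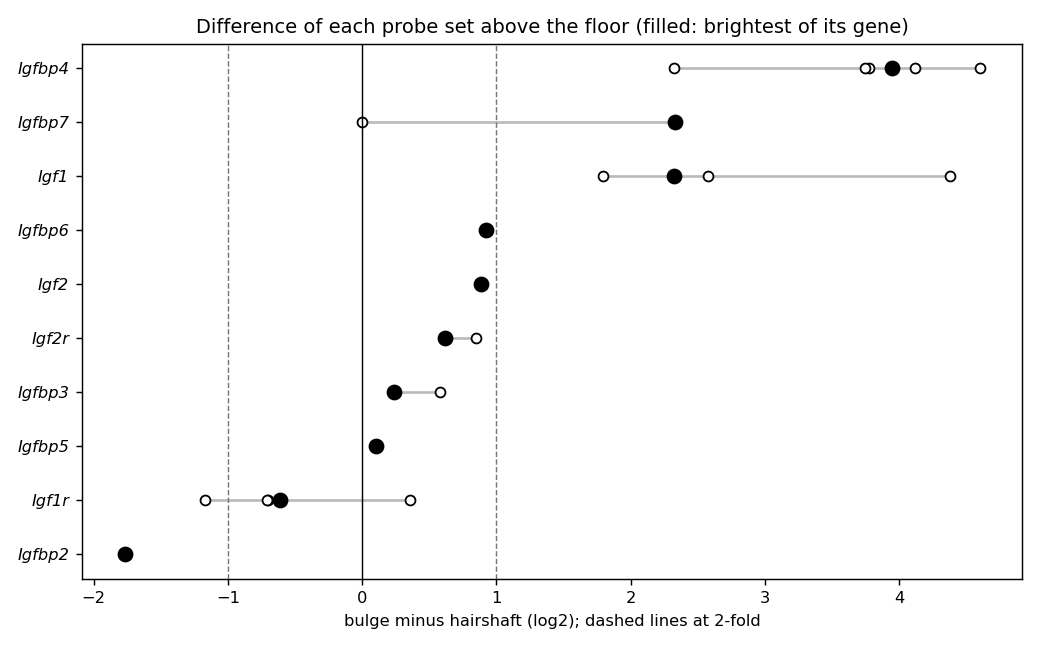
Difference bulge minus hairshaft (log2) of the 26 member probe sets above the floor, 1 row a gene, with the brightest probe set filled and dashed lines at 2-fold. The 6 probe sets of Igfbp4 span 2.32 to 4.60 and the 4 of Igf1 span 1.79 to 4.38, those of Igf1r lie on both sides of 0, and Igfbp7 has 1 probe set at 2.33 and 1 at 0.

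Igfbp2 and Igfbp5 lie side by side in the genome and differed unequally between the arrays. In the RefSeq gene order of GRCm38.p6, they are neighbouring protein-coding genes on chromosome 1. The differences of Igfbp2 and Igfbp5 were -1.77 and 0.10, a gap of 1.87. Igfbp3 neighbours Igfbp1 on chromosome 11. Igfbp1, a binding protein made mainly in liver, was not above the floor (2.23 on both arrays). Igfbp4, also on chromosome 11, lies between Top2a, a topoisomerase of dividing cells (8.76 in the bulge against 8.35 in the hairshaft), and Tns4, an adhesion adaptor (10.11 in the bulge against 10.81 in the hairshaft), both within 2-fold.

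The promoters of the 4 members at least 2-fold apart are shown because 3 of them shared a direction and the remaining 1 had the other. Each is the 250 bases before an annotated RefSeq start (GRCm38.p6), 5′ to 3′ on the gene's strand. Capitals mark TATAAA (the TATA box), GGGCGG (the GC box) or CCAAT, each searched on both strands; no 2 matches overlap in the windows shown. The array data do not say which start was used.
Igfbp4 (chr11:99040994-99041243, plus strand): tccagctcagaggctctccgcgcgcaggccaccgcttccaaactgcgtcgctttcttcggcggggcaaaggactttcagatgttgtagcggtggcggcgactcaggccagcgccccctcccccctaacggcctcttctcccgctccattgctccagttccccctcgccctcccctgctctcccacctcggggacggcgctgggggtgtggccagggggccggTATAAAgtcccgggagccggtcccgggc
Igf1 (chr10:87860861-87861110, plus strand): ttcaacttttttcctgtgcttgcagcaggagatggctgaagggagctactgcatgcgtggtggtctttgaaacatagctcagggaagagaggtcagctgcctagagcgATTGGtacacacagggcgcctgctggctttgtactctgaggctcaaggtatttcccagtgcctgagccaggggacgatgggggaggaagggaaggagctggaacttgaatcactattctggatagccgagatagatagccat
Igfbp7 (chr5:77408046-77408295, minus strand): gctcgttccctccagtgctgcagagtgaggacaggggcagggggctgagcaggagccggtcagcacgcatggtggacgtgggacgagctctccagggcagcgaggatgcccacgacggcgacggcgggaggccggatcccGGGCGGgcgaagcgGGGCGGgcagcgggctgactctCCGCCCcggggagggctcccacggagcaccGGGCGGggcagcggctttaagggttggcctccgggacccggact
Igfbp2 (chr1:72824230-72824479, plus strand): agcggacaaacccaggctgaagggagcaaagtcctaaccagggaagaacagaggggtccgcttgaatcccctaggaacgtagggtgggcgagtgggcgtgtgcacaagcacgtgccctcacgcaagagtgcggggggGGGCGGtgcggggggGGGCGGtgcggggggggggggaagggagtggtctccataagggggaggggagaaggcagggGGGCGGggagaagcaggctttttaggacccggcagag
The 3 genes that were higher in the bulge did not share a motif among those searched. Igfbp4 held 1 TATA box that starts 28 bases before the annotated start, Igf1 held 1 CCAAT box, here in reverse, and Igfbp7 held 4 GC boxes. Igfbp2, which was higher in the hairshaft, held 3 GC boxes at this start and none at its second annotated start. Of 32851 windows of the same length in the RefSeq table, 12.4% held TATAAA, 32.7% GGGCGG and 33.8% CCAAT. The base composition also differed, with 69.2% G and C in the window of Igfbp4, 52.8% in that of Igf1, 74.0% in that of Igfbp7 and 67.2% in that of Igfbp2, against a median of 52.4% over all windows.

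Most genes around the family were within 2-fold, but by their brightest probe sets they were past 2-fold more often than genes in general. In 6 lists of pathway genes (99 names, of which 90 were measured, 9 were not analysed here and 75 were above the floor), 14 genes (18.7%) were past 2-fold on the bulge side, 6 (8%) were past 2-fold on the hairshaft side and 55 were within 2-fold. The same shares over all genes were 11.5% and 4.91%, and 11118 of 13297 genes were within 2-fold. The median difference of the 75 was 0.06. With the mean of probe sets, Pappa, Pik3cd, Meg3 and Crim1 fell under 2-fold on the hairshaft side. Ccn1, Grb10, Peg3 and Stat5b did so on the bulge side. Over all genes, that setting left 1205 of 12874 past 2-fold on the bulge side and 571 on the hairshaft side. The higher share of the lists on the hairshaft side therefore rests on the brightest probe sets. The lists were chosen with earlier results of these data known.

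The proteases that free IGFs from their binding proteins, with their inhibitors, had 9 of 11 genes within 2-fold and a median of 0.08. The other 2 were the pappalysins, in opposite directions. Pappa2, which cleaves IGFBP3 and IGFBP5, read 6.26 in the bulge against 2.90 in the hairshaft, 10.2-fold higher in the bulge. The hairshaft value was just above the floor of 2.69. The difference was past 2-fold in 9 of 9 alternatives, at 2.04 over the stricter floor and 1.98 with an offset of 16. The alternatives that choose or average probe sets, that with no floor and the subtraction of the median returned the main difference of 3.36. Those are no check on the Pappa2 call. Pappa, which cleaves IGFBP4, read 2.51 in the bulge, below the floor, and 4.68 in the hairshaft, at least 3.94-fold higher in the hairshaft (a difference of -1.98). This call rests on 1 dim probe set: the difference was -0.46 over the stricter floor, -0.51 when the probe sets were averaged, -0.89 with an offset of 16 and 0.01 with plain probe sets (no letter in the suffix of their name). The stanniocalcin Stc2, an inhibitor of pappalysin chosen after its values were seen, read 4.20 in the bulge against 3.77 in the hairshaft.

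Relatives of the binding proteins and the ternary complex partner had 3 of 10 genes past 2-fold on the bulge side, 2 on the hairshaft side and 5 within 2-fold, with a median of 0.07. Igfals, the liver protein that completes the circulating complex with IGFBP3, was at the edge of the floor (2.83 in the bulge against 2.64 in the hairshaft). The largest difference was in Ccn2, a matricellular protein with an IGFBP-like domain, at 11.90 in the bulge against 5.86 in the hairshaft, followed by its relative Ccn1 at 9.29 in the bulge against 7.12 in the hairshaft. The 4 probe sets of Ccn1 disagreed, from -2.95 to 2.69, and its difference was -2.95 with plain probe sets and -0.06 with the mean. Ccn3 was 2.09-fold higher in the bulge, chosen after its values were seen, and under 2-fold with the offset (0.75) and with quantile normalization (0.90). Ccn4 (4.10 in the bulge against 5.61 in the hairshaft) and Crim1, a membrane protein with an IGFBP-like motif (8.79 in the bulge against 10.20 in the hairshaft), were higher in the hairshaft; the difference of Crim1 was -0.39 with the mean of its probe sets and that of Ccn4 -0.97 with the offset.

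In the list of the insulin receptor and its adaptors, 11 of 14 genes were within 2-fold and the median was -0.06. The insulin receptor, Insr, read 8.07 in the bulge against 7.74 in the hairshaft. The substrate Irs1, which docks on the insulin receptor and on the receptor encoded by Igf1r, read 9.85 in the bulge against 10.22 in the hairshaft. Irs2 read 2.72 in the bulge against 4.21 in the hairshaft, 2.83-fold higher in the hairshaft, but its difference was 0.00 over the stricter floor, -0.68 over a floor at the median probe set and -0.61 with the offset. Grb14 and Grb10, adaptors known to dampen receptor signalling, were past 2-fold on the bulge side. Grb14 read 7.38 in the bulge and 2.57, below the floor, in the hairshaft, at least 25.9-fold (a difference of 4.69, which became 2.19 when its probe sets were averaged and 3.16 over the stricter floor). Grb10 read 7.27 in the bulge against 5.82 in the hairshaft (2.74-fold, but a difference of 0.49 in place of 1.45 with the mean of probe sets).

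The pathway below the receptors, from phosphoinositide 3-kinase to mTOR, had 19 of 23 genes within 2-fold, with a median of 0.10. Akt1, the central kinase, read 9.44 in the bulge against 9.06 in the hairshaft. Inppl1, a phosphatase that removes the kinase's lipid product, was 3.78-fold higher in the bulge (7.49 in the bulge against 5.57 in the hairshaft), and Pik3r1, the regulatory subunit, 3.04-fold higher (10.20 in the bulge against 8.60 in the hairshaft), with differences of 1.07 to 3.13 over 4 probe sets. Sgk1, a kinase related to AKT, was 2.26-fold higher in the bulge (12.37 in the bulge against 11.20 in the hairshaft). Pik3cd, the catalytic subunit of leukocytes, read 5.71 in the bulge against 7.24 in the hairshaft, 2.88-fold higher in the hairshaft, with a difference of -0.44 in place of -1.53 with the mean of probe sets.

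Growth hormone raises Igf1 transcription in many tissues through its receptor, JAK2 and STAT5. In this list 3 of 7 genes above the floor were past 2-fold on the bulge side, none on the hairshaft side and 4 were within 2-fold, with a median of 0.61 that was -0.19 with plain probe sets. The receptor, Ghr, read 10.99 in the bulge against 10.37 in the hairshaft (1.53-fold), with differences of 0.61 to 1.52 over 3 probe sets. Stat5a (7.70 in the bulge against 6.58 in the hairshaft) and Stat5b (8.58 in the bulge against 7.41 in the hairshaft) differed by 1.12 and 1.17 toward the bulge, and the average over the probe sets of Stat5b was 0.96. Socs2, a feedback inhibitor of the growth hormone receptor, read 7.19 in the bulge against 3.33 in the hairshaft, 14.5-fold higher in the bulge. Its 3 probe sets above the floor had differences of 0.09 to 3.86. In place of 3.86, the difference was 2.97 over the stricter floor and 1.15 with the mean of its probe sets.

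In the list of IGF2 mRNA-binding proteins and imprinted growth genes, 2 of 10 genes above the floor were past 2-fold on the bulge side and 1 on the hairshaft side, with a median of -0.02 that was 0.65 over a floor at the median probe set. Cdkn1c, a maternally expressed inhibitor of the cell cycle, was 3.06-fold higher in the bulge (4.61 in the bulge against 2.99 in the hairshaft), with a difference of 1.61 that became 0.39 over the stricter floor and 0.75 with the offset. Peg3, a paternally expressed zinc finger gene, was 2.82-fold higher in the bulge (6.15 in the bulge against 4.65 in the hairshaft), and the noncoding RNA gene Meg3 2.97-fold higher in the hairshaft (7.33 in the bulge against 8.90 in the hairshaft). With the mean of their probe sets the differences were 0.45 for Peg3 and -0.44 for Meg3.

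**Figure D4:**
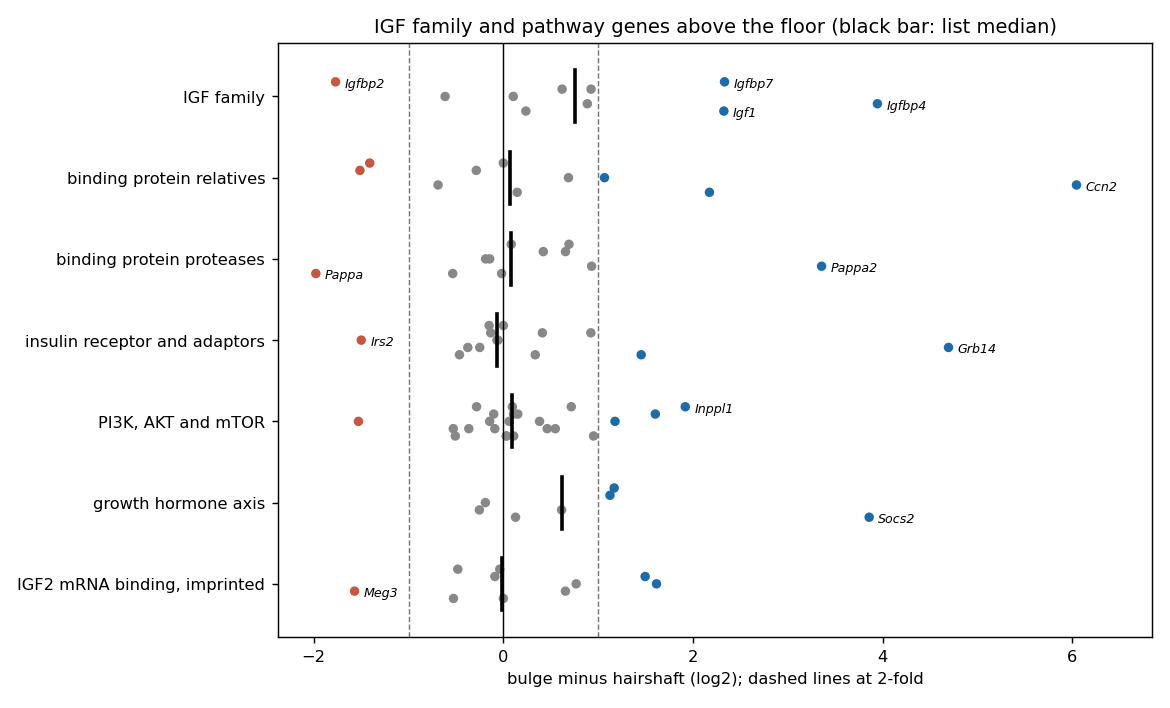
Difference bulge minus hairshaft (log2) of each gene above the floor in the IGF family and in 6 pathway lists, with the list median as a black bar and dashed lines at 2-fold (blue, past 2-fold on the bulge side; red, on the hairshaft side; grey, within 2-fold). The IGF family has its median at 0.75 and the growth hormone axis at 0.61, and the other 5 lists have medians between -0.06 and 0.10.

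Markers of other tissues of the skin moved with the same contrast, and fewer cells of a type and less RNA per cell cannot be told apart in these bulk samples. Of 18 skeletal muscle markers above the floor (20 measured), 17 were past 2-fold on the bulge side, with a median difference of 11.20. Their summed linear level was 242709 units in the bulge array and 162 units in the hairshaft array, a sum that includes background signal. In the hairshaft array 11 of the 20 were above the floor of 2.69, several of them barely (Tnnt3 at 2.75, Ckm at 2.76 and Tnni2 at 2.85). The highest there were Mylpf (4.97) and Des (4.69), and Acta1, the brightest in the bulge, read 3.11. Myl1, Tnnc2 and Ttn were among those below the floor. All 13 adipocyte markers measured were past 2-fold on the bulge side (median 6.52), with a summed level of 65342 units in the bulge against 565 in the hairshaft. In the hairshaft 7 of 13 were above the floor, among them the brightest of the list, Car3 (5.69), Fabp4 (4.19) and Lpl (6.21). The defining gene Adipoq was not (11.96 in the bulge against 2.57 in the hairshaft).

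Of 16 endothelial markers, 13 were past 2-fold on the bulge side (median 2.81), with a summed level of 2358 units in the bulge against 372 in the hairshaft. Of 14 smooth muscle and pericyte markers, 10 were past 2-fold on the bulge side (median 1.64), with sums of 7790.2 in the bulge against 2529.5 in the hairshaft. In the hairshaft 13 of 16 endothelial and 14 of 14 smooth muscle and pericyte markers were above the floor. The part that any of these tissues has in the values of Igf1, Igfbp4 and Igfbp7 was not tested.

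Mesenchymal markers, which belong to cells known to make IGF1, did not move one way. Of 16 fibroblast markers above the floor, 4 were past 2-fold on the bulge side and 5 on the hairshaft side, with a median of -0.48 and a summed level of 31491 units in the bulge against 79625 in the hairshaft. The 4 were Mgp, Pi16, Mfap5 and Dpt, the same direction as Igf1, and the 5 were Col1a1, Eln, Col5a1, Col1a2 and Col3a1, the opposite one. Of 12 dermal papilla markers above the floor (18 measured), 5 were past 2-fold on the bulge side and 1 on the hairshaft side (median 0.45), with sums of 1212 units in the bulge against 846 in the hairshaft. The 5 were Lepr, Sox18, Fgf7, Wif1 and Spon1, the 1 was Vcan, and Sox2, Alx4, Corin, Fgf10, Nog and Rspo2 were below the floor on both arrays. The part of these cells in the value of Igf1 was not tested.

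Beside the higher Igfbp2 of the hairshaft array, markers of keratinocytes and leukocytes were mostly close and those of the sebaceous gland were not. Of 10 basal keratinocyte markers, 9 were within 2-fold and 1 was higher in the hairshaft (median -0.15, sums of 60776 units in the bulge against 66788 in the hairshaft). Of 11 suprabasal markers, 8 were within 2-fold and 3 were higher in the hairshaft (median -0.11, sums of 176383 units in the bulge against 195822 in the hairshaft). Of 12 macrophage and leukocyte markers, 11 were within 2-fold and 1 was higher in the hairshaft (median -0.11, sums of 12064 units in the bulge against 13988 in the hairshaft). Of 7 sebaceous gland markers above the floor, 5 were past 2-fold on the bulge side and 2 were within 2-fold (median 3.89, sums of 34253 units in the bulge against 6847 in the hairshaft). The part of these cells in the Igfbp2 value was not tested.

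**Figure D5:**
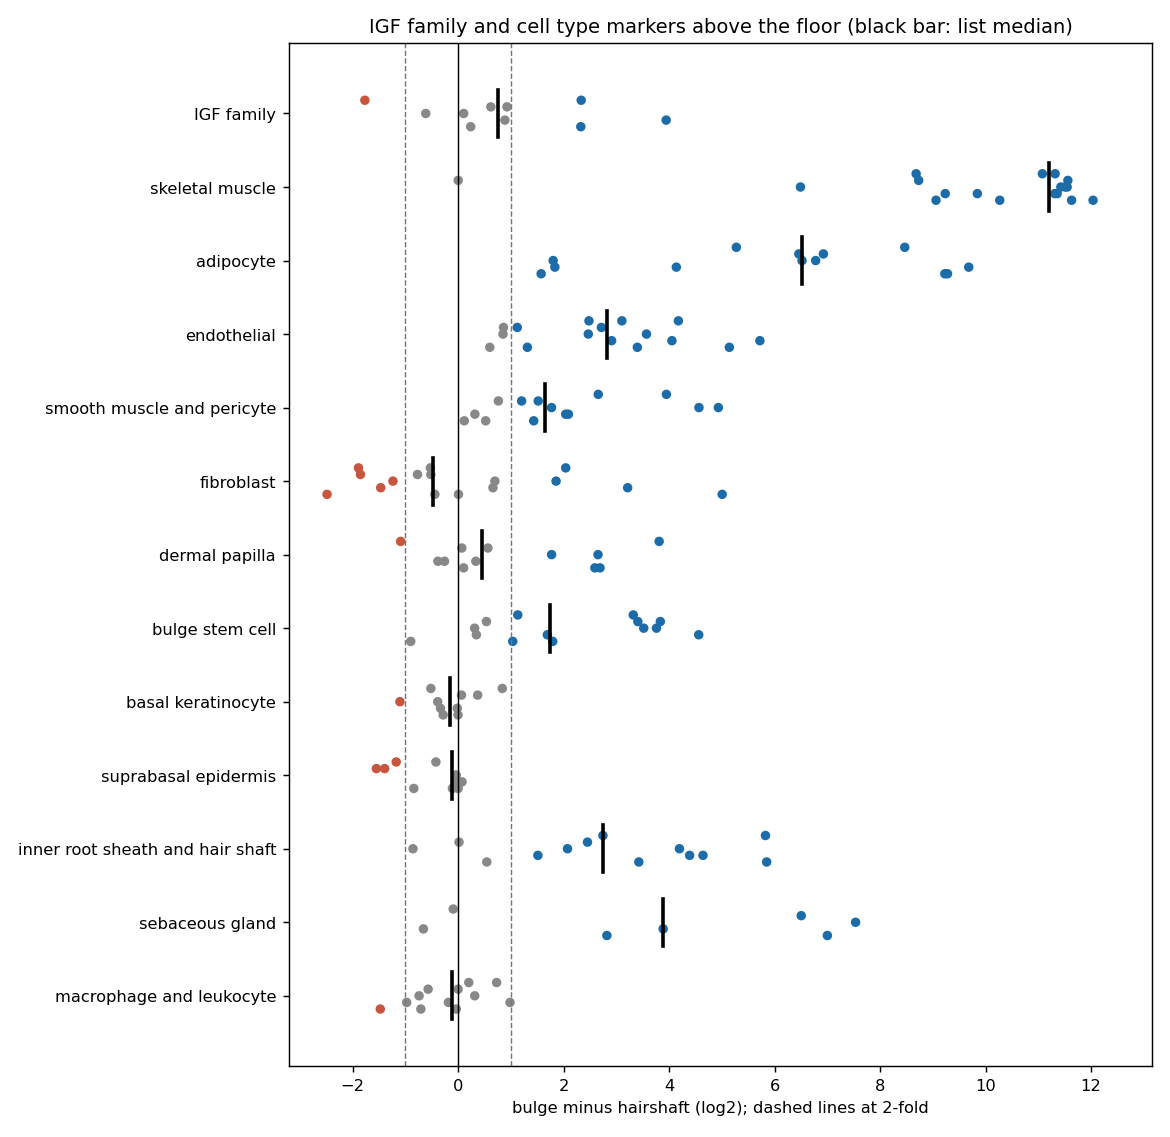
Difference bulge minus hairshaft (log2) of each gene above the floor in the IGF family and in 12 lists of cell type markers, with the list median as a black bar and dashed lines at 2-fold (blue, past 2-fold on the bulge side; red, on the hairshaft side; grey, within 2-fold). The skeletal muscle (median 11.20) and adipocyte (6.52) lists lie far to the right of the IGF family (0.75), and the fibroblast list (-0.48) has genes beyond 2-fold on both sides.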

How the data were processed

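Per the submitters' processing notes, the authors summarised the arrays with GCRMA, which corrects background from probe sequence; no version or setting is recorded there. The deposited values are on a log2 scale, as read from their range of 2.23 to 15.36, and were used without further scaling. The 2 samples were grouped by their labels, and 0 columns were left unused. Of 45101 probe sets, 34958 had 1 gene symbol, 932 several and 9211 none in the platform annotation; 34754 symbols were updated through Entrez identifiers against RefSeq GRCm38.p6. Depth does not apply to arrays.

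Each gene took its brightest probe set by the mean of both arrays. Values at or below the floor were raised to it before the difference was taken, and folds that rest on this are written "at least". With 1 array per structure there were 0 residual degrees of freedom, so no test was run and counts use a 2-fold limit. Summed levels add the linear values of a list's genes above the floor. Named were all members, up to 4 genes with the largest difference from each pathway list among those at least 2-fold apart, and a few pathway genes chosen by role. Also named were the 3 genes nearest to the member with the largest difference, and up to 3 bright genes of some marker lists. From several marker lists no gene was named. Some genes outside this rule were named after their values were seen, among them Stc2, Ccn3, the neighbours of members on the chromosome and several markers of the muscle, adipocyte, bulge, fibroblast and dermal papilla lists. Members and lists were chosen with earlier results of these data known. The counting was tested on simulated data. The 9 alternatives were a floor at the 99th percentile (4.22), at the median of all probe sets, or none; the mean of probe sets; only probe sets with no letter in the suffix of their name (plain probe sets); 16 added before taking logs; subtraction of a loess curve (span 0.3) or of the median difference; and quantile normalization. The tools were matplotlib 3.10.9, statsmodels 0.14.6, numpy 2.4.6, pandas 2.3.3 and Python 3.11.15.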

Additional observations from a re-analysis of the deposited data

How the results depend on the processing

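Each of the 10 members kept its direction in every alternative that gave it a value. Igf1 stayed past 2-fold on the bulge side in 9 of 9 (2.02 to 2.77), Igfbp4 in 8 of 8 (3.75 to 4.06) and Igfbp7 in 8 of 9 (0.78 with the mean of probe sets, otherwise up to 2.46), while Igfbp2 stayed past 2-fold in the hairshaft in 8 of 8 (-1.77 to -1.63). Not all of these alternatives could move the values. The brightest probe sets of Igf1, Igfbp4, Igfbp7 and Igfbp2 lay above every floor, and the median over all genes was 0. The alternative floors and the subtraction of the median difference therefore returned the main values and are no check on these calls. The same holds for plain probe sets with Igf1 and Igfbp7, and for the mean with Igfbp2, which has 1 probe set. Igfbp2, Igfbp4 and Igfbp5 have no plain probe set. With plain probe sets, which also leave out 1 probe set of Igf1, the count of member probe sets past 2-fold on the bulge side was 4 in place of 11, and 0 member genes in place of 1 were 2-fold higher in the hairshaft. The count of member probe sets past 2-fold on the hairshaft side was 1 in place of 2 with plain probe sets, the 99th percentile floor and the offset of 16; 24 member probe sets were above that floor. The median difference of the growth hormone list was -0.19 in place of 0.61 with plain probe sets, and that of the list of IGF2 mRNA-binding proteins and imprinted genes 0.65 in place of -0.02 with the floor at the median probe set, where fewer genes were tested. Averaging probe sets gives no count of probe sets, so that alternative was not run for them. The other 99 recomputed counts and medians stayed within 1.5-fold. A list median near 0 can change sign within that limit. With plain probe sets, the median of the binding protein relatives was -0.29 in place of 0.07. That of the insulin receptor list was 0.19 in place of -0.06. Subtraction of the median difference could not change any of the 99, so they overstate how much was checked. Leaving out a replicate could not be done, and no paired analysis was possible because each structure has 1 array. Signal close to background limits the dim probe sets of Igf1, Igf1r, Igf2, Igfbp4 and Igfbp7, and no alternative measures the spread between animals.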

Other observations

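One further probe set carries the symbols of Igf2r and of Airn, the antisense RNA gene that overlaps it, and was kept out of the family because it cannot be given to either gene. It read 2.42 on both arrays, below the floor.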
